A study of Saccharomyces cerevisiae with 2 samples.

Results

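Putative open reading frames are predicted protein genes, most of them with products that have no established function. In the table of BioGRO-seq counts for budding yeast, Saccharomyces cerevisiae, 566 rows carried the class putative. Of these, 558 are described here, out of 6448 rows in all. The 8 others belong by their annotation to named gene families, namely the Y' helicases of chromosome ends, the Rta1-like membrane proteins, the hexokinases and the Ski complex, and were left out. The members were taken by this class and not by their counts. RefSeq calls the product of 403 of the 558 members uncharacterized.

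Each strain was represented by 1 library. One came from BY4741, a haploid laboratory strain labelled as wild type, and the other from a Euroscarf strain deleted for XRN1, whose parent strain the labels leave unnamed. Both cultures were grown to an OD600 of 0.55, permeabilised with sarkosyl, treated with RNase A and supplied with a biotin-labelled UTP, which engaged polymerases built into their transcripts during 5 min at 30 °C. The label is captured on streptavidin, so the counts report RNA made by engaged polymerases rather than the amount of mRNA in the cell.

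Xrn1 is the main cytoplasmic exonuclease that degrades decapped mRNA from its 5′ end. It also enters the nucleus, and its loss has been linked to altered transcription. Reading frames of unknown function in yeast are often short, poorly transcribed, restricted to this species or its relatives, or used only under conditions such as stress, sporulation or nutrient change. Some lie within or against a better known gene, so that their counts may hold the reads of that gene.

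The wild-type library held 64934493 counts and that of the deletion strain 46396400. The deleted gene XRN1 had 41954 wild-type and 53 deletion-strain counts, as the labels imply. Ratios below are the deletion strain over the wild type, scaled so that the median protein-coding gene, whose raw ratio was 0.701, stands at 1. They show differences between genes, and a shift shared by every gene would not appear in them. A frame was called higher when its ratio reached 2, and lower when it was 0.5 or less, provided that the 95% counting interval left out 1 and the frame had at least 100 counts over both libraries. A single library per strain allows no replicate check, so no p-value is printed, and the intervals in brackets cover counting error only. The sources used here do not say whether reads were counted by strand. Positions of frames are those of the coding sequence in the R64 annotation.

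The upstream sequences of 5 frames are shown first, because they combine over 1000 wild-type counts and a place among the 15 highest ratios with the letters AGGGG, the core of the stress response element bound by the transcription factors Msn2 and Msn4. Each runs from 250 bases before the start codon to the 50th base of the frame, 5′ to 3′ on the strand of the frame, and is taken from the RefSeq R64 genome. Capitals mark AGGGG or, where it lies on the other strand, CCCCT. The windows are chrXIV:652215-652514 (plus strand) for YNR014W, chrXV:1064793-1065092 (plus strand) for YOR385W, chrXVI:84147-84446 (minus strand) for YPL247C, chrXIII:473215-473514 (minus strand) for YMR103C and chrXII:510804-511103 (plus strand) for YLR177W.
YNR014W: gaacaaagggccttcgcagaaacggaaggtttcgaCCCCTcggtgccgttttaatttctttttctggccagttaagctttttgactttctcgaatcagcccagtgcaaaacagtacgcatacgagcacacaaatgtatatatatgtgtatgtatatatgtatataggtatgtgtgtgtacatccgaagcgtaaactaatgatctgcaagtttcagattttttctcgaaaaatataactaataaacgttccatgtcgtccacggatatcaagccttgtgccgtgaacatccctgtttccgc
YOR385W: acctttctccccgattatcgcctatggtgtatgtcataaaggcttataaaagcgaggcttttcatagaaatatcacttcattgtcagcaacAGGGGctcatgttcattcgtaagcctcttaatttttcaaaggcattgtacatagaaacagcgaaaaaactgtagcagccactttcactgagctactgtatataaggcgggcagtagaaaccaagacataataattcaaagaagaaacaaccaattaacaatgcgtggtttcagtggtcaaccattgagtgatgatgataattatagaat
YPL247C: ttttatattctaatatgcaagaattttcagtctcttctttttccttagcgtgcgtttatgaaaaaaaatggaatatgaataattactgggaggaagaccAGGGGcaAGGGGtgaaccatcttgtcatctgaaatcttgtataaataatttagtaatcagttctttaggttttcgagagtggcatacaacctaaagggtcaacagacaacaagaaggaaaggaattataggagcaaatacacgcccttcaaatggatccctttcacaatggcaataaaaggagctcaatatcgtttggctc
YMR103C: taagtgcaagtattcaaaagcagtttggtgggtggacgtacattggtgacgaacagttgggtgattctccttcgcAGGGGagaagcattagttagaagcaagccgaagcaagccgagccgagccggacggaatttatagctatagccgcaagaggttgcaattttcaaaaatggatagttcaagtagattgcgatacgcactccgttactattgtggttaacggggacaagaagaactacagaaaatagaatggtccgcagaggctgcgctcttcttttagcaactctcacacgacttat
YLR177W: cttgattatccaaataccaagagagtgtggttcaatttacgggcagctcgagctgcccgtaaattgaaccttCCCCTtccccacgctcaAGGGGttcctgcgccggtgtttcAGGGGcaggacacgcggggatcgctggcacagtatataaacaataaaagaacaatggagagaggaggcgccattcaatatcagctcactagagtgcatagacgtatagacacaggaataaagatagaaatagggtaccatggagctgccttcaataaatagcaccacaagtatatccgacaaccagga
YLR177W held 3 copies, between 178 and 134 bases before the start codon, and YPL247C held 2. The copy of YMR103C lies 175 to 171 bases before its start codon. There the window takes in the end of the coding sequence of YPK2, a gene 155 bases away on the same strand. YCL042W, YJL107C and YML003W, which were as well transcribed and also among the 15 highest, held 0. A copy is a description of the letters and was not shown here to be bound.

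Putative frames were transcribed at a lower level than protein-coding genes. Their median level was 1876 counts per kb of coding length, against 4526 for protein-coding genes. The level was taken as the mean of the wild-type count and the scaled count of the deletion strain. Of the 547 putative frames with a RefSeq length, 103 (18.8%) lay above the protein-coding median. They were also shorter, with a median coding length of 510 bases against 1263. Dubious frames, a class of predicted frames that are unlikely to encode a protein, had fewer counts per frame. Their median over both libraries was 175, against 1549 for putative frames and 9913 for protein-coding genes. Few dubious frames have a RefSeq length, so their level per kb is not given. At least 100 counts were reached by 456 members, a further 63 had 20 to 99 counts and 39 had fewer than 20.

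Together the putative frames held 1974231 counts, or 3.04%, of the wild-type library and 1552753 counts, or 3.35%, of the other (95% exact binomial interval 3.34% to 3.35%). These sums rested on few frames. YGL088W alone held 24.2% of the putative counts in the wild type, and the 10 frames with most counts held 40.0% and 40.9%. Without YGL088W the shares of the libraries were 2.30% and 2.51%.

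YGL088W (chrVII:345836-346201, plus strand) had 477649 wild-type and 388182 deletion-strain counts, with a ratio of 1.16 (1.15 to 1.16). Of its 366 bases, 216 (59%) are also those of SNR10, a small nucleolar RNA gene on the same strand (chrVII:345986-346230). The rows of the table are reading frames and small nucleolar RNAs were not analysed here. The stretch chrVII:345897-346046 on the plus strand shows where the shared part begins, with the bases of SNR10 in capitals.
YGL088W: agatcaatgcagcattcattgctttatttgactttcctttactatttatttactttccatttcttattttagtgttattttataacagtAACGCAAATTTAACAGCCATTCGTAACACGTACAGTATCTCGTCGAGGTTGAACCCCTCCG
Its reads therefore cannot be assigned to the frame or to the small nucleolar RNA, and 8 other frames also overlap RNA genes.

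YJL047C-A, which shares 49 of its 135 bases with the small nucleolar RNA gene SNR60, had 149864 and 86247 counts and a ratio of 0.821 (0.814 to 0.827). YLR154C-G lies wholly within the genes of the 25S rRNA and of its precursor, in the repeated ribosomal DNA. It had 5262 and 7531 counts and lay 2.04-fold higher (1.97 to 2.11). YGR164W, YJL007C, YNL042W-B and YOR072W-B overlap tRNA genes and had ratios of 0.682, 1.10, 0.974 and 1.48. YML122C and YPL247C overlap annotated antisense RNAs. YML122C had 20 counts in each library, too few for a call, and YPL247C is described with the stress frames. These 9 frames held 32.7% of the putative counts of the wild-type library and 32.2% of those of the other. Without them the putative frames made up 2.05% and 2.27% of the libraries.

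Highly transcribed frames that overlap no RNA gene included 2 small frames of fewer than 300 bases. YDR524C-B, whose product is annotated to the endoplasmic reticulum, had 36796 wild-type and 42419 deletion-strain counts, a ratio of 1.64 (1.62 to 1.67). YCR024C-B, which was found by expression profiling and mass spectrometry, had 35729 and 19135 counts, a ratio of 0.764 (0.750 to 0.777). YCL042W, the next per kb, was called higher and is described with the frames of high ratio. YGL188C-A, YOL014W, YLR285C-A and YBR090C followed, with ratios of 1.37, 1.07, 1.17 and 1.00, and were not called, nor were YDR524C-B and YCR024C-B. YBR090C overlaps the chromatin protein gene NHP6B on the same strand.

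Relative to the median gene, the ratios of putative frames were centred close to 1 but spread more widely than those of protein-coding genes. Of the 456 frames with at least 100 counts, 31 were called higher (6.8%) and 21 lower (4.61%). Among the 5198 protein-coding genes, 4.06% were called higher and 1.52% lower. Among dubious frames the shares were 8.06% and 3.88%, and over all rows they were 4.49% and 1.89%. At a fold of 1.5, 70 putative frames were called higher and 53 lower, which compares with 10.3% and 5.35% of protein-coding genes. The median log2 ratio of putative frames was 0.04, with quartiles of −0.30 and 0.40, and 279 of 519 frames with at least 20 counts (53.8%) lay above the median gene. For protein-coding genes the quartiles were −0.22 and 0.26, with 50.2% above. Within 1.5-fold of the median gene lay 72.8% of putative frames, 84.3% of protein-coding genes and 66.0% of dubious frames.

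**Figure D1:**
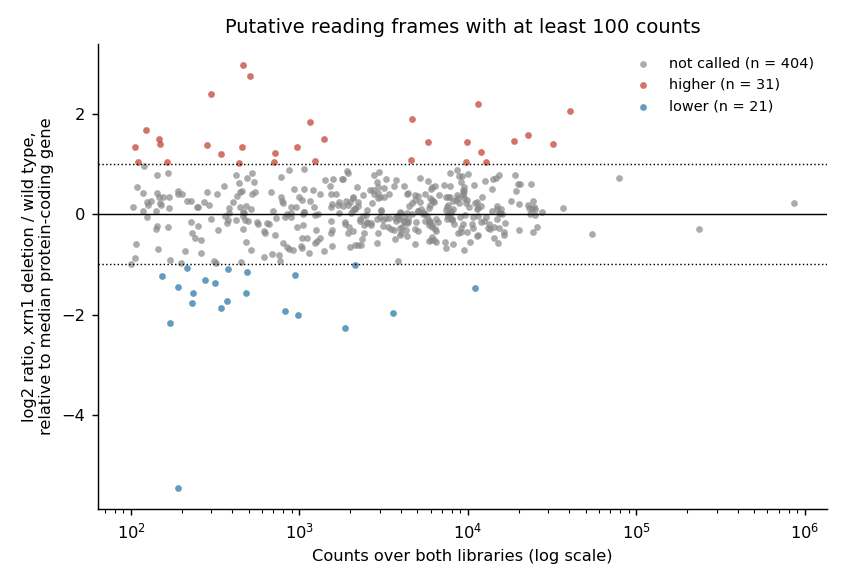
Counts over both libraries (x axis, log scale) and log2 ratio of the xrn1 deletion strain over the wild type, relative to the median protein-coding gene (y axis), for the 456 putative frames with at least 100 counts. Each point is 1 frame, and the dotted lines mark a change of 2-fold. Of the 31 frames called higher (red) and the 21 called lower (blue), 19 and 7 have at least 500 counts.

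The share called was largest among the least transcribed frames. The frames were cut into 3 equal groups by counts per kb, and shares are of the frames in a group with at least 100 counts. In the lowest group, where 84 of 183 frames had that many, 10.7% were called higher and 15.5% lower, and protein-coding genes within the same bounds had shares of 21.3% and 11.5%. In the middle group the shares were 4.95% and 3.30%, against 3.12% and 1.68% for protein-coding genes. In the highest group 6.59% were called higher and 1.10% lower, against 3.25% and 0.79%. By coding length, 122 of the 183 frames in the shortest of 3 equal groups had at least 100 counts, and of these 8.20% were called higher and 7.38% lower. Protein-coding genes within the same bounds had shares of 10.1% and 2.33%. In the longest group the shares were 5.14% and 2.29% of 175 putative frames, against 3.82% and 1.56% for protein-coding genes. The part of level and length in the calls was not tested.

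Among frames with at least 100 counts, the highest ratios were found in short frames with few counts in the wild type. YBR032W (chrII:301519-301821) had 71 wild-type and 388 deletion-strain counts and was 7.79-fold higher (6.04 to 10.2). It lies 122 bases from EDS1, a zinc cluster transcription factor gene on the same strand, which had 598 and 1397 counts and lay 3.33-fold higher. YPR145C-A (chrXVI:824690-824926), a frame with no described function, had 89 and 418 counts and lay 6.70-fold higher (5.32 to 8.52). Its neighbour, the asparagine synthetase gene ASN1, had a ratio of 0.767. YBR209W (chrII:642583-642900) had 64 and 235 counts and lay 5.24-fold higher (3.96 to 7.01). The divergent neighbour DUR12, which encodes urea amidolyase, had a ratio of 0.672.

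Among well transcribed frames the largest ratios were those of YNR014W, YOR385W and YMR103C. YNR014W (chrXIV:652465-653103), annotated as cell-cycle regulated, heat-inducible and dependent on the transcription factor Azf1, had 2737 wild-type and 8808 deletion-strain counts. It was 4.59-fold higher (4.40 to 4.79). YOR385W (chrXV:1065043-1065915), whose product is found in the cytoplasm, had 10357 and 30120 counts, the most of the 15 highest, and was 4.15-fold higher (4.05 to 4.24). YMR103C (chrXIII:472902-473264) had 1302 and 3373 counts and lay 3.69-fold higher (3.46 to 3.94). It lies 155 bases from YPK2 on the same strand, a protein kinase gene with 7363 and 26750 counts and a ratio of 5.18.

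Some of the other high frames are given with a gene that they overlap or lie near. With at least 100 counts in both, the nearest protein-coding gene lay a median of 274 bases from putative frames and 279 from protein-coding genes. YLR177W (chrXII:511054-512940), a substrate of the Dbf2-Mob1 kinase in vitro, had 7308 and 15336 counts and lay 2.99-fold higher (2.91 to 3.08). Its convergent neighbour TFS1, which encodes an inhibitor of carboxypeptidase Y, was 3.27-fold higher. YCL042W (chrIII:50584-50943) had 11265 and 20838 counts and lay 2.64-fold higher (2.58 to 2.70). It shares 106 bases with the glucokinase gene GLK1 on the same strand, which was 2.98-fold higher, so reads of both genes cannot be told apart there. YER145C-A (chrV:462386-462823) had 332 and 828 counts and lay 3.56-fold higher (3.13 to 4.05). It shares 239 bases, on the opposite strand, with LSM5, an mRNA decay factor gene that had a ratio of 0.747.

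YDR010C, with 38 and 85 counts, was 3.19-fold higher (2.15 to 4.81), and YDL242W, with 49 and 97, was 2.82-fold higher (1.98 to 4.06). The frames that complete the 15 highest, YMR084W, YJL107C, YML003W and YPL247C, are described with the split frames and the stress frames. Nearest protein-coding genes of the 15 highest that are not named above were not called. Their ratios were 1.41 (SMM1), 1.51 (PHR1), 1.33 (GAL3), 1.35 (GLO1), 1.00 (PDI1), 0.988 (SCC4), 0.903 (ADH3), 0.849 (IME2), 0.842 (AAD4) and 0.702 (GAL4). At the edge of the threshold, YPR078C was the called frame closest to 2, with 182 and 257 counts and a ratio of 2.01 (1.66 to 2.45), and YJL027C, with 51 and 69 counts and a ratio of 1.93, lay just outside it.

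**Figure D2:**
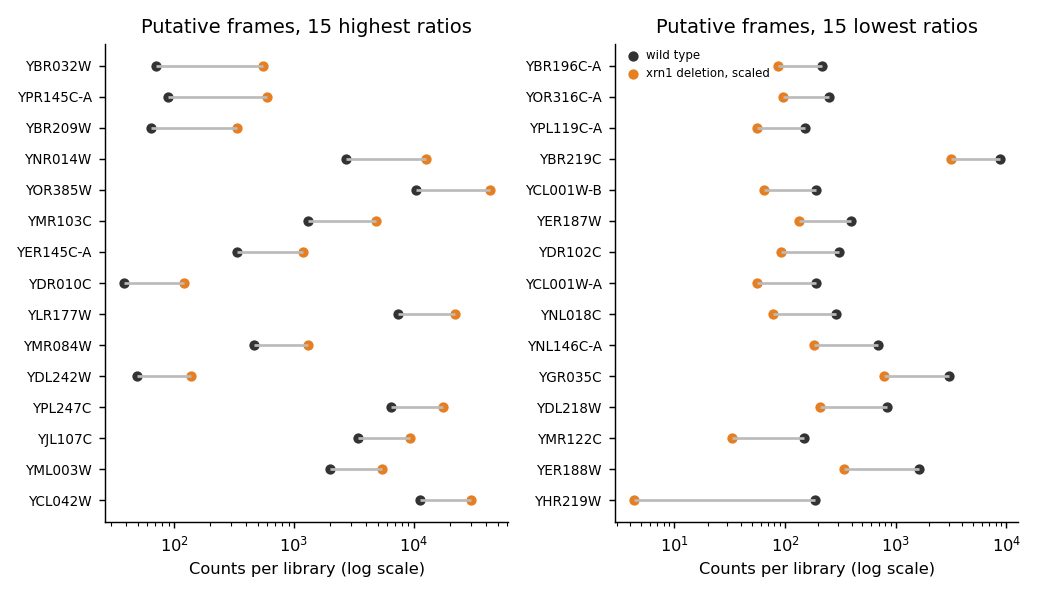
Counts in the wild type (dark) and counts in the xrn1 deletion strain after scaling to the median gene (orange) on a log axis, for the 15 putative frames with the highest and the 15 with the lowest ratio. The frames with high ratios range from 38 to 11265 wild-type counts, whereas 12 of the 15 low ones have fewer than 1000.

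The low ratios belonged mostly to weakly transcribed frames, with the exception of YGR035C, YBR219C and YER188W, of which the last lies near a chromosome end. YGR035C (chrVII:557072-557422) had 3059 wild-type and 547 deletion-strain counts and was 3.92-fold lower (3.58 to 4.30). It is annotated as activated, with multidrug resistance genes, by the paralogous transcription factors Yrm1 and Yrr1. Its paralog from the whole genome duplication, CIS1, which is regulated by the drug resistance factors Pdr1 and Yrr1, had 962 and 133 counts and lay 5.07-fold lower. YBR219C (chrII:662499-663303) had 8742 and 2212 counts and lay 2.77-fold lower (2.65 to 2.91). It shares 309 bases with YBR220C on the same strand, which had 5560 and 2583 counts and was not called, at a ratio of 0.662.

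YDL218W (chrIV:66493-67446), which the annotation describes as regulated by Azf1 and induced by starvation and in aerobic conditions, had 837 and 146 counts. It was 4.02-fold lower (3.37 to 4.83), whereas YNR014W, the other frame with an annotated link to Azf1 among those described, was higher. YNL018C, a gene required for sporulation with a segmental copy, YNL034W, had 287 and 55 counts and lay 3.66-fold lower (2.73 to 4.98). YMR122C had 147 and 23 counts and lay 4.48-fold lower (2.88 to 7.29). YNL146C-A, with 690 and 127 counts, was 3.81-fold lower (3.15 to 4.64). It ends 2 bases from LSM7, an mRNA decay factor gene with a ratio of 0.733.

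The other low frames were short. YCL001W-A and YCL001W-B lie in a duplicated region with similarity to the ribosome rescue gene DOM34, and had 190 and 39 and 189 and 45 counts. They were 3.42-fold and 2.95-fold lower. YDR102C had 305 and 65 counts and lay 3.29-fold lower. YPL119C-A, YOR316C-A and YBR196C-A were 2.72-fold, 2.59-fold and 2.47-fold lower. YBR196C-A (chrII:614024-614173) is annotated as a frame that arose de novo from a thymine-rich region between genes and whose product enters the endoplasmic reticulum membrane. It had 215 and 61 counts.

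Frames near chromosome ends had a lower median than the others. The 49 frames within 20 kb of an end had a median log2 ratio of −0.31, with quartiles of −0.79 and 0.26 and with 15 above and 27 below the median gene, against 0.05 for the frames beyond 20 kb. Protein-coding genes within 20 kb had a median of 0.06. Called higher were 2 and lower 4 of 33 putative frames there (6.06% and 12.1%), against 8 and 12 of 108 protein-coding genes (7.41% and 11.1%), so the share called lower was close in both classes. Of the 49 frames, 21 have a near copy elsewhere in the genome, at 90% identity or more over at least 50% of the frame, and their median was −0.49. The reads of such copies cannot be assigned with certainty. The lowest ratio of frames with at least 100 counts was in this group: YHR219W (chrVIII:560173-562047), a frame similar to helicases with 18 near copies, had 186 wild-type and 3 deletion-strain counts, a ratio of 0.0230 (0.0047 to 0.0683).

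At the right end of chromosome V frames without a near copy were low too. YER188W (chrV:568040-568759), annotated as more expressed without oxygen, had 1634 and 239 counts and lay 4.80-fold lower (4.18 to 5.52). YER187W (chrV:566230-566655), annotated as induced in respiratory-deficient cells, had 391 and 93 counts and lay 2.95-fold lower (2.35 to 3.74). Towards the telomere, YER188C-A and YER189W, which have near copies, had ratios of 0.605 and 0.475 on 146 and 62 and on 21 and 7 counts. The helicase gene YRF1-2 at the tip had 108 and 29 counts and lay 2.61-fold lower. Near copies were not sought for protein-coding genes such as YRF1-2, so whether its reads belong to this end is not known. Towards the centromere, YER186C had 3841 and 2270 counts and a ratio of 0.843, and the protein-coding genes PUG1 and TOG1 had ratios of 1.02 and 1.37. Without the frames of this end, the frames near chromosome ends that have no near copy had a median log2 ratio of 0.12, with 12 above and 11 below the median gene.

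Stress-induced frames lay above the median gene in most cases. The list holds 24 frames of unknown or uncertain function that belong to the environmental stress response, and 14 of them are putative frames in the table. Their median log2 ratio was 0.57, with quartiles of 0.50 and 0.78, against 0.04 for all putative frames. Of the 14, 13 lay above the median gene, where 50.2% of protein-coding genes lay. Of the 13 with at least 100 counts, 2 were called higher (15.4%, against 4.49% of all rows and 6.8% of putative frames) and 0 lower. The list was chosen with earlier results of these data known, so its direction is no independent evidence.

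YPL247C, a WD repeat protein whose gene has 2 AGGGG copies upstream, had 6434 wild-type and 12298 deletion-strain counts and was 2.73-fold higher (2.64 to 2.81). PAL2 (YHR097C), which acts in endocytosis, had 3986 and 5758 counts and lay 2.06-fold higher (1.98 to 2.15), close to the threshold. MRX18 (YBR056W), a putative glycoside hydrolase of mitochondria, IAT4 (YDR391C), an N-acetyltransferase, and YER079W followed with ratios of 1.73, 1.72 and 1.71. YIR016W, with 11542 and 12261 counts, had a ratio of 1.51 (1.48 to 1.55). YGR127W, YBR053C, YNL115C and YMR196W lay between 1.41 and 1.49, and YOR289W and YMR090W had ratios of 1.32 and 1.20. HAB1 (YBR285W), an autophagy receptor gene, had 32 and 33 counts and a ratio of 1.47 whose interval (0.876 to 2.47) included 1. YPR127W, a putative pyridoxine dehydrogenase gene that the annotation describes as activated by Yrm1, was the 1 frame below the median gene, with 2705 and 1669 counts and a ratio of 0.880 (0.827 to 0.935).

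**Figure D3:**
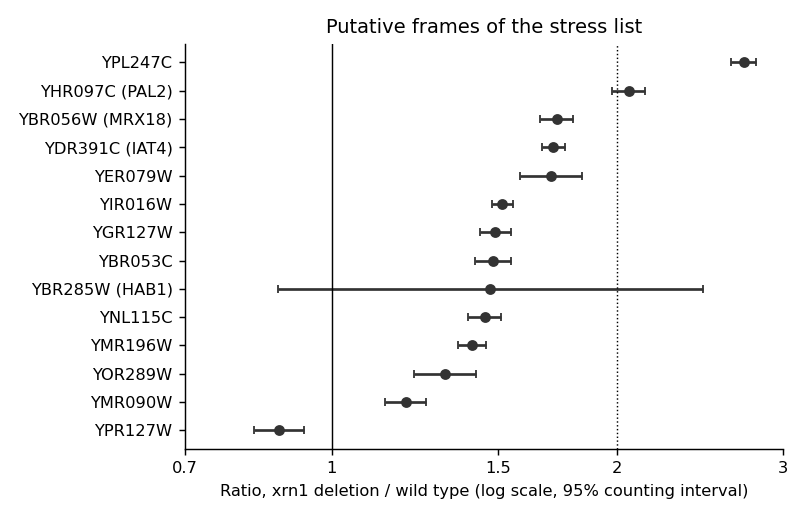
Ratio of the xrn1 deletion strain over the wild type relative to the median gene (log axis) for the 14 putative frames of the stress list, with 95% counting intervals from 1 library per strain. The solid line marks a ratio of 1 and the dotted line the threshold of 2, which YPL247C and YHR097C pass, while YPR127W lies below 1.

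The DUP240 frames, small membrane proteins, had ratios on both sides of 1. DFP4 (YHL044W) had 838 and 393 counts and a ratio of 0.669 (0.592 to 0.755). YAR023C, YAR028W and YCR007C had ratios of 1.17, 1.17 and 1.15, and 0 of the 4 were called.

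Some adjacent frames of the reference strain form 1 gene in other strains or related fungi, per the annotation, and in these pairs the upstream and the downstream frame were compared. The annotation describes YLR030W and YLR031W as separated in the reference strain by an in-frame stop codon. The junction, chrXII:204052-204254 on the plus strand, is shown from the last codons of YLR030W to the first of YLR031W, with the stop codon of YLR030W in capitals.
YLR030W-YLR031W: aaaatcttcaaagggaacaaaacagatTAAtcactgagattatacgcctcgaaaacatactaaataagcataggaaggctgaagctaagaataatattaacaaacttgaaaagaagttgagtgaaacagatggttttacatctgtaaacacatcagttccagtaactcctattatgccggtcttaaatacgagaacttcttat
The gap between the frames is 143 bases, which is not a whole number of codons, so the annotated frames are not in phase. A further stop codon in the phase of YLR030W lies within the gap. YLR030W had 348 and 613 counts and lay 2.51-fold higher (2.20 to 2.87), and YLR031W had 272 and 440 counts and lay 2.31-fold higher (1.98 to 2.69). The intervals of the ratios on either side of the stop codon overlap.

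YJL107C and PRM10, which are 1 gene in related fungi, were both called higher, by different amounts. YJL107C, annotated as induced through the Hog1 kinase pathway, had 3429 and 6503 counts and lay 2.70-fold higher (2.59 to 2.82). PRM10, a pheromone-regulated gene downstream of it, was 2.15-fold higher (2.01 to 2.31), and the intervals do not overlap. The transporter frames NFT1 and YKR104W had ratios of 1.22 and 1.18 and were not called.

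In 2 pairs the upstream frame was called higher and the downstream frame was not called. YML003W is the truncated start of a gene that continues into VRL1 (YML002W) in many strains and is cut off here by a frameshift. YML003W had 1999 and 3781 counts and lay 2.70-fold higher (2.55 to 2.85), whereas VRL1 had 4379 and 2096 counts and a ratio of 0.682 (0.648 to 0.719). YMR084W and YMR085W are merged in related strains and together resemble GFA1, the gene of the first enzyme of chitin precursor synthesis. YMR084W, upstream, had 467 and 925 counts and lay 2.82-fold higher (2.52 to 3.16), and YMR085W had 520 and 373 counts and a ratio of 1.02 (0.893 to 1.17). In both pairs the upstream frame had the higher ratio and the intervals did not overlap. The pairs were chosen after their annotations and values had been seen.

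Paralogs of the whole genome duplication gave a wider comparison between related genes. In 37 pairs both a putative frame and its paralog had at least 100 counts, and 27 pairs (73.0%) lay on the same side of the median gene. Across pairs, which all come from the same 2 libraries, Pearson's r was 0.40 and Spearman's rho 0.25. Of 7 putative frames in these pairs that were called, 1 had a paralog called in the same direction, which is YGR035C with CIS1. YNR014W was higher, and its paralog YMR206W, with 74 and 91 counts, had a ratio of 1.75 (1.28 to 2.42) and was not called. YLR031W and YOR338W, at 2.31 and 2.34, also had uncalled paralogs on the same side, EPO1 at 1.52 and FUN19 at 1.57. So did YCL001W-B, which was called lower at 0.339, with DOM34 at 0.873. YLR177W and PAL2 were higher while their paralogs were not, PSP1 at a ratio of 0.933 and PAL1 at 0.785. Conversely IGD1, an inhibitor of glycogen debranching, was 5.66-fold higher while its paralog YOL024W was at a log2 ratio of 0.03, and FLC2 was 2.33-fold higher while YOR365C was at −0.29.

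**Figure D4:**
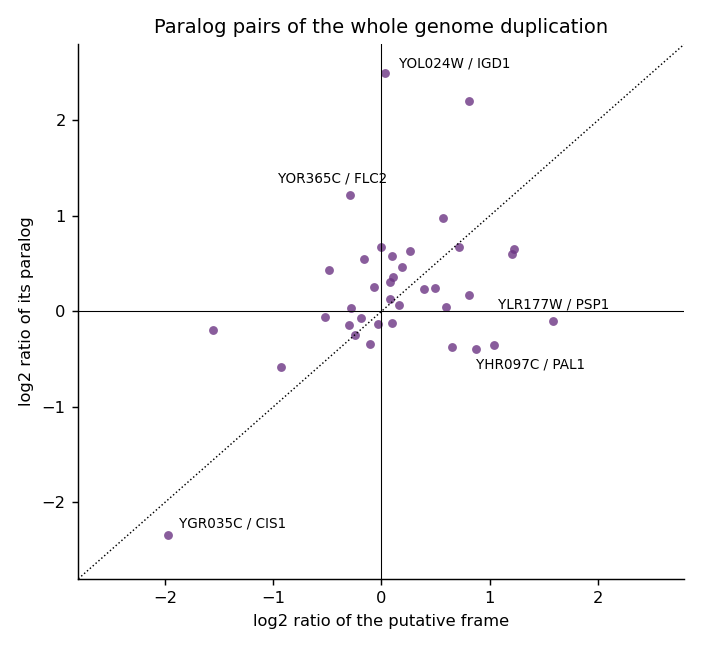
Log2 ratio of each putative frame (x axis) and of its paralog (y axis) for the 37 pairs with at least 100 counts in both genes, from 1 library per strain. The dotted line marks equal ratios; in the 4 pairs of which both genes are putative, the first by name is on the x axis. YGR035C with CIS1 stands alone at the lower left, and 27 of the pairs lie to the lower left or upper right of the crossing lines.

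By annotation, frames without a standard name made up nearly all calls. Of 356 such frames with at least 100 counts, 30 were called higher and 20 lower, against 1 and 1 of 100 frames that have a standard name. The medians were alike, at 0.03 and 0.10 on the log2 scale. The 49 frames whose notes name mitochondria had a median log2 ratio of 0.16, with 37 above and 12 below the median gene, and 0 of the 48 with at least 100 counts were called. Frames noted as conserved among strains had 9 called higher and 4 lower of 57 (15.8% and 7.02%), against 6.8% and 4.61% of all putative frames. Frames identified later by homology, expression profiling or mass spectrometry had 2 higher and 5 lower of 47 (4.26% and 10.6%). Frames noted as induced or inducible had 3 higher and 4 lower of 30 (10.0% and 13.3%), and those with a paralog of the whole genome duplication 5 higher and 2 lower of 41 (12.2% and 4.88%). These annotation groups share frames and differ in counts, and the part of counts in their calls was not tested.

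Putative frames and their neighbours lay on the same side of the median gene in little more than 50% of pairs. Each frame was paired with the nearest protein-coding gene that does not overlap it, and in 246 of 439 pairs (56.0%) both lay on the same side of the median gene. For protein-coding genes paired in the same way the share was 53.0% of 5104. Protein-coding genes that are nearest to each other entered separately for each gene, so those pairs are not all distinct. Divergent pairs, which share an upstream region, had shares of 61.1% of 72 and 60.2% of 736. Across the pairs of putative frames Pearson's r was 0.18 and Spearman's rho 0.17. The called frames were on the side of their neighbour in 31 of 50 pairs, and called protein-coding genes in 177 of 276. In divergent pairs this held for 5 of 11 called frames and 25 of 28 called protein-coding genes, a difference that was not tested.

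Another annotated gene overlapped 43 frames, and calls were more frequent among them. Of 416 frames with at least 100 counts and no overlap, 25 were called higher (6.01%) and 19 lower (4.57%). The 21 frames that overlap a gene on the same strand had a median log2 ratio of −0.14, with 3 higher (17.6%) and 1 lower (5.88%) of 17. The 21 that overlap a gene on the opposite strand had a median of −0.02, with 2 higher (14.3%) and 1 lower (7.14%) of 14. Protein-coding genes with an overlap on the same strand had 4 higher (10.8%) and 0 lower of 37, against 3.93% and 1.48% of those with none. Those with an overlap on the opposite strand had 6 higher (8.33%) and 1 lower (1.39%) of 72. Overlaps of any length were included. Among called frames, YBL071C and YJL107C share 4 bases each with another gene, and YCL042W, YER145C-A and YBR219C share 106, 239 and 309. YLR154C-G and YPL247C overlap RNA genes. The part of reads from the overlapping genes was not tested.

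The letters AGGGG, shown above in 5 windows, were found in 17 of 30 windows of frames called higher (56.7%). They were found in 4 of 21 windows of frames called lower (19.0%) and in 108 of 397 windows of frames with at least 100 counts that were not called (27.2%). Both strands were searched in the same 300 bases around the start codon. Of the windows of all 5831 annotated rows of the table, 1281 held the letters (21.97%), and of protein-coding genes called higher 45.0% did. TATAAA, the core of the TATA box, was found in 18 of 30 windows of the higher frames and in 11 of 21 of the lower ones, against 44.4% of all windows. The pheromone response element TGAAACA was found in 2 of 30 and 1 of 21 windows, against 7.22% of all, and the heat shock element GAANNTTC in 3 of 30 and 1 of 21, against 11.9%. A window can take in part of a neighbouring gene, as that of YMR103C does. These shares describe the letters in the windows and show no binding.

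**Figure D5:**
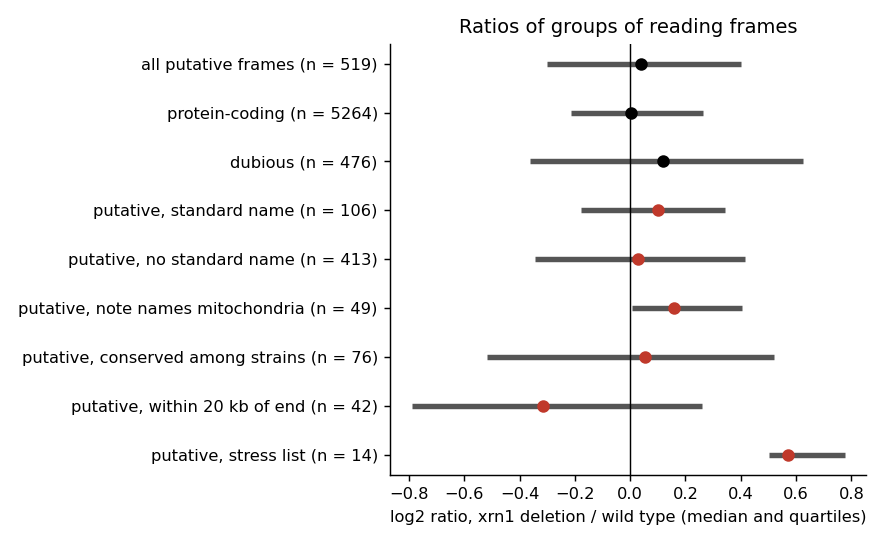
Median log2 ratio of the xrn1 deletion strain over the wild type (points) with the quartiles over frames (bars) for classes of reading frames (black) and groups of putative frames (red), with n the frames that had at least 20 counts. The stress list has the highest median, 0.57, and the frames within 20 kb of a chromosome end the lowest, −0.31.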

How the data were processed

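The values are raw counts of reads in each reading frame, deposited by the authors as 1 table with a column per library. Per the submitters' processing notes the tools were TopHat2 2.1.1, featureCounts of Subread, Trimmomatic and FastQC, and the builds sacCer3 and R64. Strand use and the treatment of reads with several matches are not given in the sources used here.

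Symbols, positions, coding lengths, notes and sequences came from the RefSeq R64 annotation and genome, which matched 547 of the 558 frames. The scale was set by the median raw ratio over protein-coding rows of 100 counts or more. Each ratio has a 95% exact conditional interval (Clopper-Pearson) for its pair of counts, which reflects counting error alone. Medians use frames with at least 20 counts. Near copies of putative frames, but not of protein-coding genes, were sought with BLAST 2.17.0. No p-value is given, because each strain has 1 library of 64934493 or 46396400 counts.

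The members, lists and alternatives were chosen with earlier results of these data known. Named frames are the 15 highest and 15 lowest ratios, the 10 with most counts per kb, those that overlap RNA genes, the list members, and the overlapping or nearest protein-coding genes. Split frames, paralog examples, the frames of the right end of chromosome V and those at the edge of the threshold were chosen after their values were seen. Alternatives were 4 other scalings (both totals, edgeR 4.0.16 TMM factors, DESeq2 1.42.0 size factors), other count minimums, 5 added counts, a fold of 1.5 and other choices of members. The procedure was tested on simulated counts with planted fold changes and counting error alone. That simulation holds no variation between cultures, so it does not show how the calls would hold up in further libraries. Software was R 4.3.3 and Python 3.11.15 with scipy 1.17.1, pandas 2.3.3 and numpy 2.4.6.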

Additional observations from a re-analysis of the deposited data

How the results depend on the processing

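With 1 library per strain no library could be left out. No paired analysis was possible because the design holds a single pair of libraries. The 4 other scalings moved the median gene by −0.01 to −0.03 on the log2 scale. Of the summary values under the alternatives, 99 stayed within 1.5 times a count, or within the 95% interval of a share or median (order statistics over frames). These include 44 frames called higher and 29 lower without a count minimum, and a median of −0.18 near chromosome ends without near copies. All 305 values of single named frames kept their side of the threshold. The sign changed in 4 of them, all of YBR090C, which lay at 0.01 on the log2 scale and between −0.01 and −0.02 under the other scalings. With a minimum of 500 counts, which leaves fewer frames, 19 were called higher and 7 lower, and the median log2 ratio of the group with the fewest counts per kb was −0.34. Calls of protein-coding genes were not made without a minimum or at 500 counts, so no background share stands beside these numbers. At a fold of 1.5, 70 frames were called higher and 53 lower, against 10.3% and 5.35% of protein-coding genes. The stress list had 1 frame called higher without frames that overlap another annotated gene, because YPL247C overlaps an antisense RNA. The share of counts held by putative frames was 2.30% (wild type) and 2.51% (deletion strain) without YGL088W. It was 3.06% and 3.36% with the 8 frames of named families put back, and 2.05% and 2.27% without the 9 frames that overlap RNA genes, a choice made after seeing the data. The values by overlap could not be given without overlapping frames.

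Counting error weighs most on the 102 frames with fewer than 100 counts, which were not called. It also widens the intervals of called frames with few counts. Of the 31 frames called higher and the 21 called lower, 19 and 7 had at least 500 counts. Variation between cultures was not measured.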
